A study of Saccharomyces cerevisiae with 6 samples.

Results

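The genes described here encode actin and 9 proteins that build, branch, bundle or shorten its filaments in the cortical patches of budding yeast (Saccharomyces cerevisiae). They were chosen by name: ACT1, COF1, PFY1, ABP1, SAC6, ARP2, ARP3, LAS17, SLA1 and CAP1. All 10 were measured, out of 4073 named genes on the arrays, each by 7 spots that were averaged on each array. The data were 6 arrays of 2 channels, 3 for the haploid laboratory strain BY4741, called wild type, and 3 for rpd3Δ cells of that background, which lack RPD3 and are called the rpd3 deletion or the mutant. RPD3 encodes a histone deacetylase. Every array set cells held at 39 °C for 20 minutes against cells of the same strain kept at 25 °C, all from cultures of 200 ml grown to mid-log phase in the rich medium YPD. The 3 arrays of a strain are described as biological replicates from independent cultures, and both strains share the auxotrophic background of BY4741.

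Actin is an abundant protein that switches between monomers and filaments. In yeast its filaments form cables along the cell and a branched network around each site of endocytosis, the cortical patch. Las17, the yeast member of the WASP family, and other activators switch on the Arp2/3 complex, which starts new branches. Capping protein stops filament growth, fimbrin bundles filaments, cofilin severs them, and profilin returns monomers to the growing end. A shift of yeast to a higher temperature is known to spread patches over the cell surface and to loosen cables for a time.

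Values are given as log2 ratios, most likely heated divided by control, so 1 unit is a doubling. The sources used here do not state the sign or the base of the logarithm; HSP12, a small heat shock protein gene that heat is known to induce, was positive on all 6 arrays, at 6.66, 6.08 and 6.43 in wild type, against 7.15, 8.75 and 5.06 in the mutant. Control RNA was always labelled with Cy5 and heated RNA with Cy3, so a dye effect and heat cannot be told apart within a strain. The error of a mean is the SD over 3 arrays (n = 3), and that of a strain difference is its standard error in the limma fit. "Rose", "fell" and "called" refer to a limma adjusted p under 0.05 over all 4073 genes. Pearson's r between 2 arrays, taken over genes that are no replicates of each other, was 0.952 to 0.980 for wild-type pairs, 0.851 to 0.956 for mutant pairs and 0.504 to 0.853 for pairs of unlike strain. HIS3, LEU2, MET17 and URA3, the marker genes deleted in BY4741, served as spots without a full transcript. Their median ratio was 0.25, 0.12 and 0.06 on the wild-type arrays, against -0.09, -0.08 and -0.12 on the mutant arrays, so wild type lay higher throughout. With the values as deposited 0 of the 4 were called in any comparison, but with arrays centred on their median 3 were called higher in wild type and 2 lower in the strain difference. Quantile normalization called 2 higher in wild type and 3 lower in the strain difference. Array weights called 3 higher in wild type, 3 lower in the strain difference and 1 lower in the mutant. RPD3 itself, which neither channel of a mutant array should hold, was at -0.07 ± 0.04 there and at 0.22 ± 0.03 in wild type. A ratio compares heat with control within a strain and says nothing of the level of a gene in either strain or of 1 gene against another.

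ACT1 (YFL039C), the single actin gene and a common reference gene in yeast RNA work, rose modestly in both strains. Its log2 ratio was 0.40, 0.31 and 0.40 on the wild-type arrays, in the order 1 to 3, against 0.39, 0.89 and 0.36 on the mutant arrays. The strains overlapped, and mutant array 2 stood above all the others. The mean was 0.37 ± 0.05 in wild type, a 1.29-fold rise (adjusted p = 0.0198), and 0.55 ± 0.29 in the mutant, a 1.46-fold rise (adjusted p = 0.00344). The strain difference was 0.18 ± 0.16 (adjusted p = 0.366, 95% interval -0.19 to 0.55) and was not called. The wild-type call of ACT1 did not survive leaving out any 1 of the wild-type arrays (adjusted p = 0.0931, 0.0598 and 0.077), nor centring on the marker genes (0.22, adjusted p = 0.114), whereas the mutant call was kept under all 15 alternatives.

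**Figure D1:**
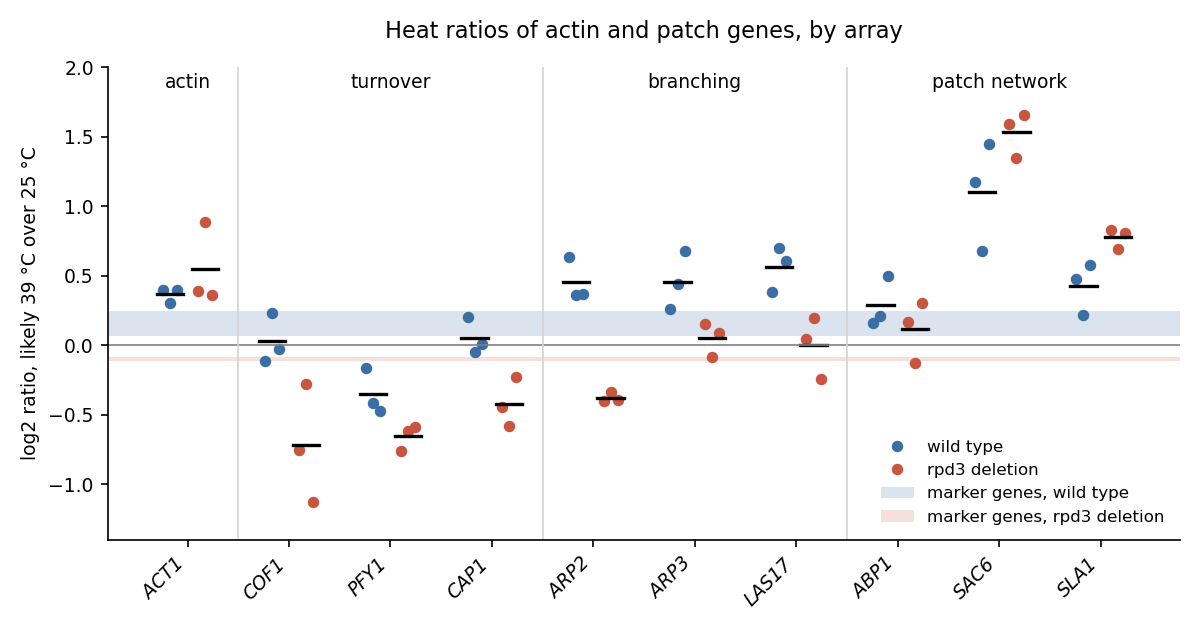
Log2 heat ratio (likely 39 °C over 25 °C) of the 10 genes on each array, grouped by role; points are arrays, black lines are means of 3, and the bands span the median ratio of the 4 deleted marker genes on the 3 arrays of each strain. SAC6 is the highest in both strains, and all 3 mutant arrays of ARP2 lie between -0.40 and -0.34 while its wild-type arrays lie between 0.36 and 0.63.

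COF1, PFY1 and CAP1, the genes of filament turnover chosen here, fell in the mutant, and in wild type PFY1 alone of them fell. Related genes described further below did not all fall in the mutant. AIP1, whose product helps cofilin, rose there (0.81 ± 0.03, adjusted p = 0.000109). CAP2, the partner gene of CAP1, was not called there (0.15 ± 0.14, adjusted p = 0.138). COF1 (YLL050C) encodes cofilin, which cuts old filaments. Its ratio was -0.11, 0.23 and -0.03 in wild type, against -0.75, -0.28 and -1.13 in the mutant. Every mutant array was below every wild-type array, with a wide spread among the mutant arrays. The mean was 0.03 ± 0.18 in wild type (adjusted p = 0.866) and -0.72 ± 0.43 in the mutant, where COF1 fell 1.65-fold (adjusted p = 0.00436). PFY1 (YOR122C) encodes profilin, which binds monomers and feeds them to formins. Its ratio was -0.17, -0.42 and -0.48 in wild type, against -0.76, -0.62 and -0.59 in the mutant. PFY1 was thus negative on all 6 arrays, the mutant arrays again below the wild-type ones. It fell 1.28-fold in wild type (-0.35 ± 0.16, adjusted p = 0.00761) and 1.58-fold in the mutant (-0.66 ± 0.09, adjusted p = 0.000405). CAP1 (YKL007W) encodes the alpha subunit of capping protein, which sits on the growing end of a filament. Its ratio was 0.20, -0.05 and 0.01 in wild type, against -0.45, -0.58 and -0.23 in the mutant, with no overlap between the strains. CAP1 fell 1.34-fold in the mutant (-0.42 ± 0.18, adjusted p = 0.00511) and was at 0.05 ± 0.13 in wild type (adjusted p = 0.624).

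The 3 genes of filament branching rose in wild type, and none of them rose in the mutant. ARP2 (YDL029W) and ARP3 (YJR065C) encode the actin-related proteins that form the start of a new branch. The ratio of ARP2 was 0.63, 0.36 and 0.37 in wild type, against -0.40, -0.34 and -0.39 in the mutant, so all wild-type arrays were positive and all mutant arrays negative. ARP2 rose 1.37-fold in wild type (0.45 ± 0.15, adjusted p = 0.00158) and fell 1.30-fold in the mutant (-0.38 ± 0.04, adjusted p = 0.00418). On wild-type array 1, 1 of its 7 spots read 1.69 and raised the array's mean from 0.45 over the other spots to 0.63; the SD between spots was 0.469 there, against 0.0140 to 0.204 for every other gene and array among the 10 genes. With the median of the spots in place of the mean, ARP2 was at 0.40 in wild type and its strain difference at -0.77, both still called.

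ARP3 stood at 0.26, 0.44 and 0.68 on the wild-type arrays and at 0.15, -0.08 and 0.08 on the mutant arrays. It rose 1.37-fold in wild type (0.46 ± 0.21, adjusted p = 0.00412), and in the mutant it was at 0.05 ± 0.12 (adjusted p = 0.663). LAS17 (YOR181W) encodes the WASP-family activator of that complex. It read 0.38, 0.70 and 0.61 in wild type, against 0.04, 0.20 and -0.24 in the mutant. For ARP3 and LAS17 alike, the highest mutant array stayed below the lowest wild-type array. LAS17 rose 1.48-fold in wild type (0.56 ± 0.16, adjusted p = 0.00210), while the mutant mean was -0.0002 ± 0.22 (adjusted p = 0.999).

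The genes of the patch network rose in wild type, led by SAC6. SAC6 (YDR129C) encodes fimbrin, which bundles filaments and makes the network stiff. Its ratio was 1.18, 0.68 and 1.45 in wild type, against 1.59, 1.35 and 1.66 in the mutant. The strains overlapped, since wild-type array 3 was above mutant array 2. SAC6 rose 2.14-fold in wild type (1.10 ± 0.39, adjusted p = 0.000316) and 2.90-fold in the mutant (1.53 ± 0.16, adjusted p = 8.02e-05), where it ranked 135 from the top of the 4073 genes. It was the only one of the 10 genes to change by more than 2-fold in either strain.

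SLA1 (YBL007C) encodes an adaptor of the endocytic coat that binds Las17 and cargo. It was at 0.48, 0.21 and 0.58 in wild type, against at 0.83, 0.69 and 0.80 in the mutant, the only one of the 10 genes whose mutant arrays all lay above the wild-type arrays. It rose 1.34-fold in wild type (0.42 ± 0.19, adjusted p = 0.00372) and 1.71-fold in the mutant (0.78 ± 0.07, adjusted p = 0.000206). ABP1 (YCR088W) encodes a filament-binding protein that also activates the Arp2/3 complex. The values of ABP1 were 0.16, 0.21 and 0.49 in wild type, against 0.17, -0.13 and 0.30 in the mutant, which overlap. Its rise in wild type was the smallest called (0.29 ± 0.18, 1.22-fold, adjusted p = 0.0440), and the mutant mean was 0.11 ± 0.22 (adjusted p = 0.375). The wild-type call of ABP1 was lost without any 1 of the wild-type arrays (adjusted p = 0.0734, 0.0916 and 0.222), without mutant array 1 (0.0765) and by centring on the marker genes (0.15, adjusted p = 0.332).

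Counted together, 7 of the 10 genes rose in wild type and 1 fell, where 29.7% of all genes rose and 36.3% fell, 66.0% in all. Of those rises, ACT1 and ABP1 lost their calls without any 1 wild-type array and with arrays centred on the marker genes. The other rises were kept under every alternative that held the gene. Their median ratio was 0.40, against -0.05 for all genes. In the mutant 3 rose (ACT1, SAC6 and SLA1) and 4 fell (COF1, PFY1, CAP1 and ARP2), where 33.7% of all genes rose and 31.9% fell, 65.6% in all, and the median was 0.03, against 0.003 for all genes. Per array, the median of the 10 genes was 0.32, 0.27 and 0.45 in wild type, against 0.10, -0.11 and -0.07 in the mutant. Each wild-type median lay above each mutant one, as was the case for the marker genes. Relative to the marker genes of the same array the medians overlapped, at 0.07, 0.15 and 0.38 in wild type, against 0.19, -0.02 and 0.04 in the mutant. In the mutant, single genes lay as far apart as -1.13 and 1.66 on 1 array.

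**Figure D2:**
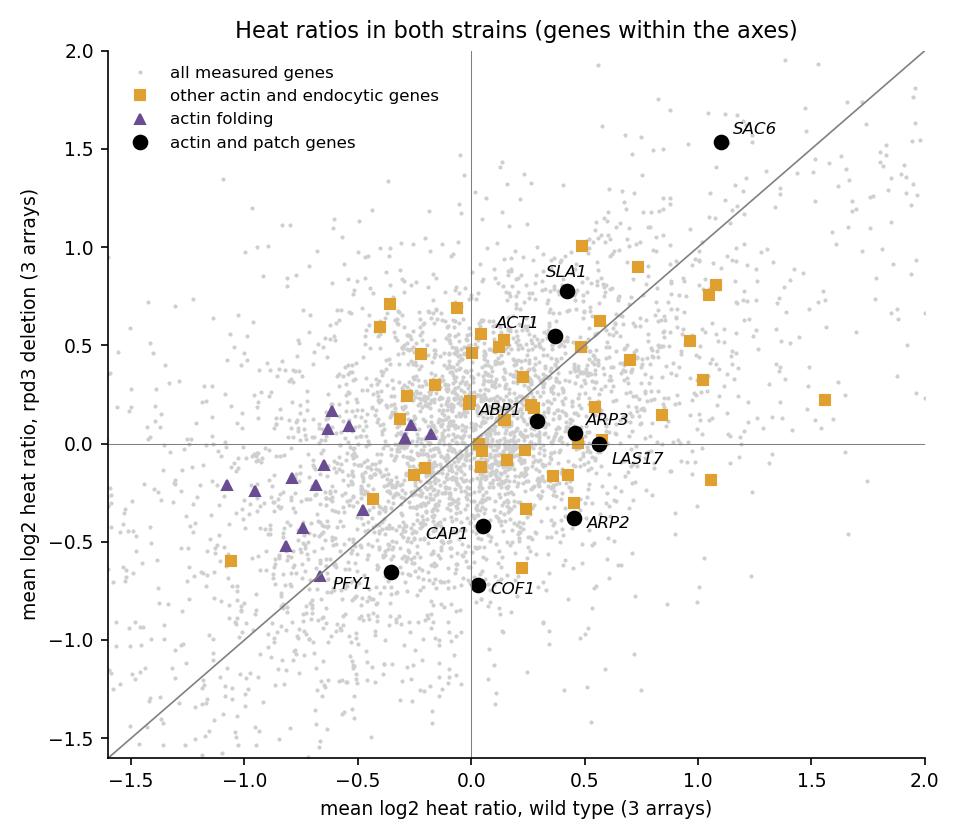
Mean log2 heat ratio of each gene in wild type (x axis) and in the rpd3 deletion (y axis), 3 arrays each, for genes within the axes; the diagonal marks equal ratios. SAC6, SLA1 and ACT1 lie above the diagonal, while the other 7 labelled genes lie below it; the genes that help actin to fold lie to the left of 0.

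The direct comparison of the strains called 5 of the 10 genes, all with a lower heat ratio in the mutant: ARP2, COF1, LAS17, CAP1 and ARP3. Over all genes 21.0% were called lower and 24.8% higher, 45.8% in all. Ratios cannot tell whether strains differ before heat, after it or at both times. It was -0.83 ± 0.11 for ARP2 (adjusted p = 0.00163), a 1.78-fold lower ratio and the largest difference among the 10 genes. For COF1 it was -0.75 ± 0.22 (adjusted p = 0.0260), for LAS17 -0.56 ± 0.15 (0.0185), for CAP1 -0.47 ± 0.13 (0.0223) and for ARP3 -0.41 ± 0.14 (0.0449). In each of these 5 genes and in PFY1, all 3 mutant arrays lay below all 3 wild-type arrays, where 27.3% of all genes did so, as did all 4 deleted marker genes. SLA1 alone lay above without overlap, as did 31.1% of all genes, and 58.4% did not overlap in 1 direction or the other. PFY1 was not called (-0.30 ± 0.12, adjusted p = 0.0754, 95% interval -0.58 to -0.02), but was called lower with quantile normalization (-0.40, adjusted p = 0.0254), arrays centred on their median (-0.35, adjusted p = 0.0447) and array weights (-0.43, adjusted p = 0.00305), which made 6 genes lower. Under these same settings 2 or 3 of the 4 deleted marker genes were called lower too. With the values as deposited ABP1 was, like PFY1, not called (-0.17 ± 0.15, adjusted p = 0.362, 95% interval -0.53 to 0.18).

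SAC6 and SLA1 had positive strain differences that were not called. They were 0.43 ± 0.20 for SAC6 (adjusted p = 0.113, 95% interval -0.04 to 0.90) and 0.35 ± 0.12 for SLA1 (adjusted p = 0.0508, 95% interval 0.06 to 0.64). An uncalled difference does not show equal ratios in the strains.

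The calls depended on where 0 was set. The 4 deleted marker genes had a median strain difference of -0.26, none of them called. With every array centred on them, the median strain difference of all genes moved by 0.24, from 0.02 to 0.26. ARP2 was then still called lower (-0.59, adjusted p = 0.00334). The calls were lost for COF1 (-0.51, adjusted p = 0.0853), LAS17 (-0.33, adjusted p = 0.140), CAP1 (-0.24, adjusted p = 0.175) and ARP3 (-0.17, adjusted p = 0.438), while SAC6 (0.67, adjusted p = 0.0307) and SLA1 (0.59, adjusted p = 0.0099) were called higher in the mutant. The call for ARP2 held under all 14 alternatives that kept it. Leaving out 1 array left 1 to 4 genes called lower, the fewest without mutant array 1. COF1 was lost without any 1 wild-type array or without mutant array 1 (adjusted p = 0.0513 to 0.0975), ARP3 without any array but wild-type array 1 (0.0663 to 0.113) and with the median of the spots (0.0574), LAS17 without wild-type array 2 (0.0723) or mutant array 1 (0.0594), and CAP1 without array 1 of either strain (0.0843 and 0.0848).

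**Figure D3:**
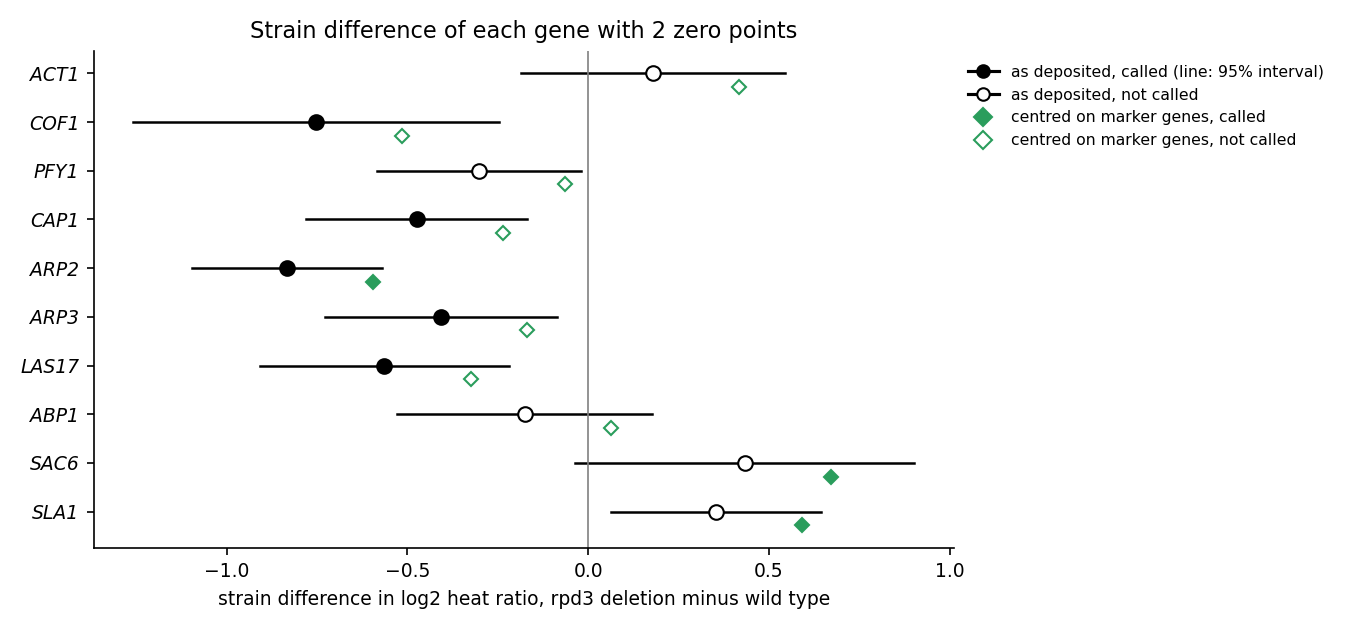
Strain difference in the log2 heat ratio (rpd3 deletion minus wild type) of the 10 genes; circles are values as deposited with their 95% interval, diamonds are values with arrays centred on the 4 deleted marker genes, and filled symbols are called. ARP2 is called lower with both zero points, while COF1, CAP1, ARP3 and LAS17 are called lower with the deposited zero alone.

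The partners of these proteins were read from lists chosen by function. Over all genes, 29.7% rose and 36.3% fell in wild type, and 33.7% rose and 31.9% fell in the mutant. For the strain difference 24.8% were called higher and 21.0% lower. Each list count below is to be read beside these shares. Some lay near them, such as 4 rising and 4 falling of 12 genes of filament binding and assembly in wild type. ARP2 and ARP3 belong to a complex of 7 subunits, all of which were measured. In wild type 5 of the 7 subunit genes rose and 0 fell. In the mutant ARC35 alone rose (0.75 ± 0.30, adjusted p = 0.000915), and ARP2 and ARC18 fell. ARC18 was at 0.27, 0.61 and 0.48 in wild type, against at -0.28, -0.08 and -0.55 in the mutant, a strain difference of -0.76 ± 0.15 (adjusted p = 0.00719). Its fall in the mutant (-0.30 ± 0.24, adjusted p = 0.0398) was lost under 6 of 15 alternatives, among them leaving out mutant array 1 (adjusted p = 0.123) and centring on the marker genes (-0.21, adjusted p = 0.167). The rise of ARC18 in wild type (0.45 ± 0.17, adjusted p = 0.00754) was lost by centring on the marker genes (0.31, adjusted p = 0.0525). It was also lost without wild-type array 2 (0.0566). ARC35 had the highest wild-type ratio of the complex (1.05 ± 0.12, adjusted p = 0.000138), and ARC15, at 0.24 ± 0.14 (adjusted p = 0.0350), had the lowest that was called, a call lost without wild-type array 1 (0.195) or 2 (0.106), without mutant array 1 (0.0637) and by centring on the marker genes (0.09, adjusted p = 0.329). The strain difference was negative for all 7 genes, from -0.83 for ARP2 to -0.03 for ARC40, and was called for 3, ARP2, ARC18 and ARP3. That shared sign depends on where 0 is set, as the deleted marker genes had a median strain difference of -0.26. ARC19 and ARC40 (both -0.03) lay above that value, and ARC15 (-0.27) and ARC35 (-0.30) lay near it. With arrays centred on the marker genes the strain-difference calls of ARP2 and ARC18 were kept and that of ARP3 was lost.

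CAP2 encodes the beta subunit that pairs with the product of CAP1. It was at 0.90, 0.86 and 0.77 in wild type, against at 0.16, 0.28 and 0.00 in the mutant, so that wild type stood clearly above. CAP2 rose in wild type (0.84 ± 0.06, adjusted p = 5.79e-05), where CAP1 was near 0. Both subunit genes had a lower ratio in the mutant, by -0.70 ± 0.11 for CAP2 (adjusted p = 0.00300) and -0.47 ± 0.13 for CAP1.

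Among the 12 measured genes of filament binding and assembly, CAP2 included, 4 rose and 4 fell in wild type, 5 rose and 2 fell in the mutant, and 5 were higher and 3 lower in the mutant than in wild type. AIP1, which helps cofilin to take filaments apart, had the highest ratio in both strains (1.08 ± 0.16 and 0.81 ± 0.03). ABP140, a filament-binding protein gene, had the lowest (-1.06 ± 0.16 and -0.60 ± 0.45). TPM1 encodes the main tropomyosin, which coats cables rather than patches. It was at -0.39, -0.55 and -0.14 in wild type, against at 0.85, 0.44 and 0.84 in the mutant. It fell in wild type (-0.36 ± 0.20, adjusted p = 0.0246), a call lost without wild-type array 1 (0.106) or 2 (0.147), and rose in the mutant (0.71 ± 0.24, adjusted p = 0.00112). Its strain difference of 1.07 ± 0.16 (adjusted p = 0.00245) was opposite in sign to those of the branching and capping genes.

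**Figure D4:**
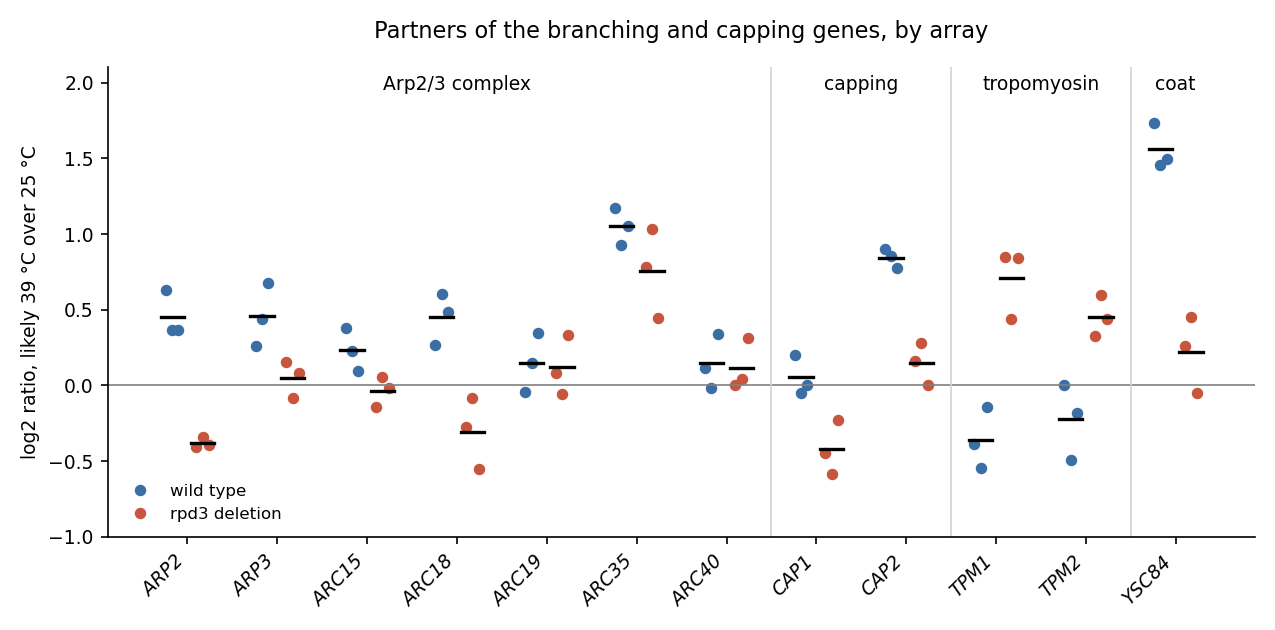
Log2 heat ratio (likely 39 °C over 25 °C) on each array for the 7 genes of the Arp2/3 complex, both capping protein genes, both tropomyosin genes and the coat gene YSC84; points are arrays and black lines are means of 3. CAP2, ARC18 and YSC84 lie lower in the mutant on every array, and TPM1 and TPM2 lie higher.

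Las17 is 1 of several activators of the complex. Of the 11 genes in the list of Arp2/3 subunits and activators that were not among the 10 described first, 7 rose and 0 fell in wild type, and in the mutant 4 rose and 1 fell. MYO3 and MYO5 encode paired type I myosins of the patch, which may share signal where their sequences are close. MYO3 was at 0.74 ± 0.27 in wild type and 0.90 ± 0.27 in the mutant, the highest mutant ratio of the list (adjusted p = 0.000691). MYO5 rose in wild type (0.47 ± 0.13, adjusted p = 0.00267) and was at 0.001 ± 0.17 in the mutant. The strain difference of MYO5 was -0.47 ± 0.13 (adjusted p = 0.0224), the smallest of the 3 in that list that were called lower, and it was lost with arrays centred on the marker genes (-0.23, adjusted p = 0.216) and without array 1 of either strain (0.0810 and 0.0676) or wild-type array 3 (0.0608).

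Of 16 genes of the endocytic coat and its adaptors, 7 rose and 0 fell in wild type, and 6 rose and 1 fell in the mutant. YSC84, which encodes an actin-binding protein of the patch, had the highest ratio in wild type (1.73, 1.45 and 1.50) and only 0.26, 0.45 and -0.05 in the mutant. Its strain difference of -1.34 ± 0.15 (adjusted p = 0.000973) exceeded that of each of the 10 genes. The clathrin heavy chain gene CHC1 had the highest mutant ratio (1.01 ± 0.42, adjusted p = 0.00154), and SLA2 had the lowest called rise in wild type (0.28 ± 0.06, adjusted p = 0.00776), a call lost without wild-type array 1 (0.0526) and with arrays centred on the marker genes (0.14, adjusted p = 0.138). CHC1 also rose in wild type (0.49 ± 0.32, adjusted p = 0.0369), a call kept under 9 of 15 alternatives. The rise of SLA2 in the mutant (0.18) was kept under 4 of 15. APM4, a subunit gene of an endocytic clathrin adaptor complex, fell in the mutant (-0.64 ± 0.27, adjusted p = 0.00157). The epsin gene ENT1 was the only one of the 16 with a called higher ratio in the mutant (strain difference 0.75 ± 0.17, adjusted p = 0.0118), which was lost without wild-type array 1 (0.0506).

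Among 8 genes of scission and disassembly, 3 rose and 0 fell in wild type, and 5 rose and 1 fell in the mutant. The kinase genes AKL1, PRK1 and ARK1, whose products phosphorylate coat proteins and let patches come apart, were those that rose in wild type (0.57 ± 0.24, 0.27 ± 0.03 and 0.36 ± 0.11). With arrays centred on the marker genes AKL1 alone of the 3 kept its call, with PRK1 at 0.12 (adjusted p = 0.235; 0.0518 and 0.052 without wild-type arrays 1 and 3) and ARK1 at 0.22 (adjusted p = 0.0550). ARK1 had a lower ratio in the mutant (-0.53 ± 0.10, adjusted p = 0.00585), as had INP52, a phosphoinositide phosphatase gene (-0.58 ± 0.16, adjusted p = 0.0208). Both of these calls were lost with arrays centred on the marker genes (adjusted p = 0.0871 and 0.0781), and that of INP52 also without array 1 of either strain (0.0817 and 0.0707) or wild-type array 2 (0.0761). In the mutant itself, the rise of PRK1 (0.20 ± 0.09) was kept under 8 of 15 alternatives. The fall of INP52 there (-0.33 ± 0.19) was lost with arrays centred on the marker genes (adjusted p = 0.0644). It was also lost without mutant array 1 (0.11) or 3 (0.127).

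New actin chains fold in the chaperonin, a ring complex of 8 different subunits, with the help of prefoldin, a complex of 6. In wild type most of these genes fell, while most of the 10 actin and patch genes rose. Of 15 such genes, which include the chaperonin's helper PLP2, 14 fell in wild type and 0 rose, with a median of -0.65. Over all genes 36.3% fell and 29.7% rose there. In the mutant 4 fell and 0 rose, with a median of -0.17, where 31.9% of all genes fell and 33.7% rose. A higher ratio than in wild type was called for 8 and a lower one for 0, where 24.8% of all genes were higher and 21.0% lower. GIM4 was 1 of the 8 (0.71 ± 0.17, adjusted p = 0.0139), but its spots disagreed. The SD between them was 0.575, 0.666 and 0.612 on the mutant arrays and 0.287 on wild-type array 3. For YKE2 it was 0.461 and 0.344 on wild-type arrays 2 and 3. CCT7 fell most in wild type (-1.08 ± 0.30, adjusted p = 0.00731), a call lost without wild-type array 1 (0.0549) or 2 (0.0516). In the mutant its arrays ranged from -1.01 to 0.53. PAC10 was at -0.53, -0.62 and -0.69 in wild type, against at 0.18, 0.24 and 0.08 in the mutant, the largest called strain difference of the list (0.78 ± 0.10, adjusted p = 0.00157). GIM3 fell in both strains (-0.67 ± 0.06 in each), with a strain difference of -0.01 ± 0.10 (adjusted p = 0.949). Of the 4 genes that fell in the mutant, PFD1 fell least (-0.34 ± 0.10, adjusted p = 0.00871), a call lost without mutant array 1 (0.0824). The number of folding genes called higher in the mutant was 8 with the values as deposited, 12 with arrays centred on the marker genes, 5 with quantile normalization and 2 to 12 when 1 array was left out, the lowest without mutant array 1.

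**Figure D5:**
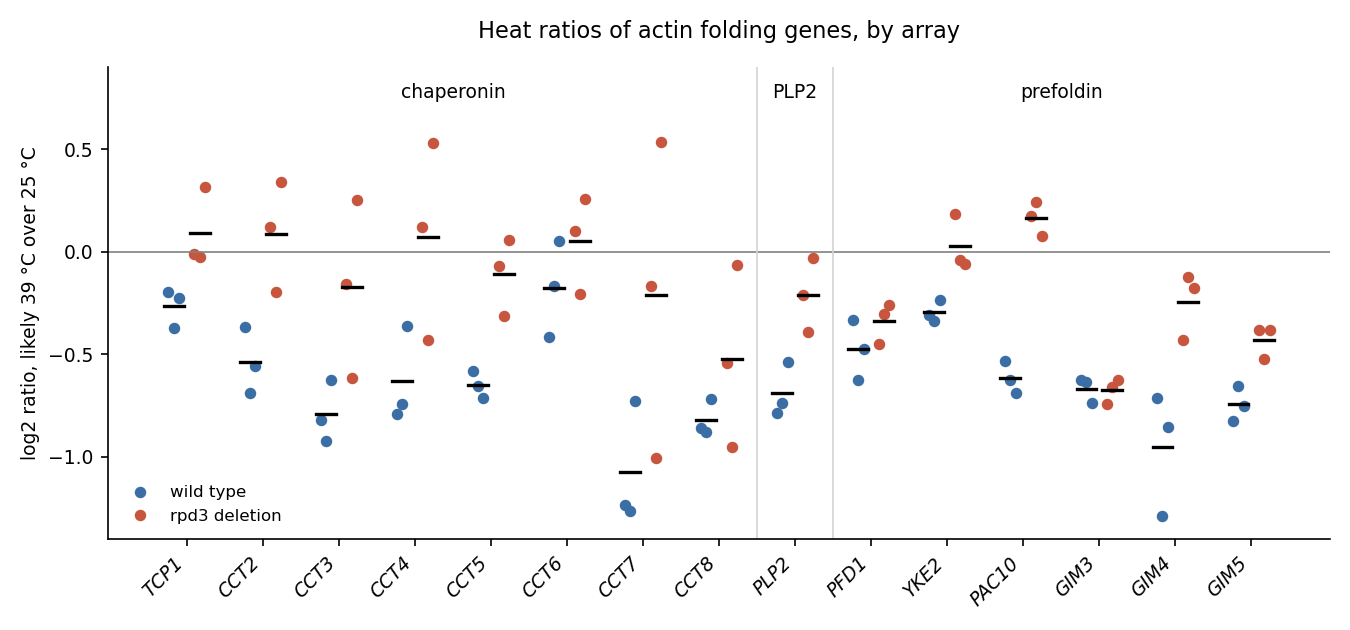
Log2 heat ratio (likely 39 °C over 25 °C) on each array for the 8 chaperonin genes, PLP2 and the 6 prefoldin genes; points are arrays and black lines are means of 3. Wild-type means lie between -1.08 and -0.18, and the mutant means of the chaperonin genes lie closer to 0 with a wide spread among the mutant arrays.

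Actin has relatives that work elsewhere in the cell. Of 8 genes of other actin-related proteins, most of them parts of chromatin remodelling complexes, 0 rose and 5 fell in wild type, and 3 rose and 3 fell in the mutant. ARP5, of the INO80 remodelling complex, was at -0.89, -1.12 and -0.49 in wild type, against at 0.46, 0.10 and 0.71 in the mutant (strain difference 1.25 ± 0.21, adjusted p = 0.00349). ARP8 (0.75 ± 0.15) had the highest and ARP9 (-0.58 ± 0.26) the lowest mutant ratio. ARP1, the filament of dynactin, fell in wild type (-0.26 ± 0.07), a call that leaving out wild-type array 1 (adjusted p = 0.0867) or 2 (0.0605) removed, and rose in the mutant (0.41 ± 0.09). ARP6 had the only called lower ratio in the mutant (-0.35 ± 0.11, adjusted p = 0.0371), which was lost with arrays centred on the marker genes (-0.11, adjusted p = 0.445) and without array 1 of either strain (0.12 and 0.134), wild-type array 2 (0.114) or mutant array 3 (0.0906).

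Of 9 tubulin and septin genes, the other cytoskeletal polymers, 0 rose and 5 fell in wild type, and 0 rose and 3 fell in the mutant. TUB4, the gamma-tubulin gene, fell most (-1.09 ± 0.10 in wild type and -0.52 ± 0.15 in the mutant, strain difference 0.57 ± 0.12, adjusted p = 0.00820). The septin gene CDC11 had the largest strain difference (0.59 ± 0.14, adjusted p = 0.0134), which was not called without array 1 of either strain (0.0570 and 0.0555) or wild-type array 2 (0.0520). The alpha-tubulin genes TUB1 and TUB3, which may share signal where their sequences are close, fell by 0.35 and 0.27 in wild type. The wild-type call of TUB1 was lost on leaving out any 1 of the wild-type arrays (adjusted p = 0.121, 0.0884 and 0.075), and that of TUB3 without wild-type array 3 (0.0519). TUB1 also fell in the mutant (-0.33), a call kept under 8 of 15 alternatives.

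The genes whose 6 ratios lay nearest to those of ACT1, by Euclidean distance over the 6 arrays, were YND1, HXT8, RAD6, DAL7 and PBS2, at distances of 0.212 to 0.277 log2 units. None of them is among the actin genes listed here. The genes nearest to ARP2, the gene with the largest strain difference of the 10, were XDJ1, CBP4, NEO1, CIN1 and CTL1, at 0.248 to 0.306. Among the 10 genes themselves, ABP1 and ARP3 were nearest to each other (0.380), followed by ARP3 and LAS17 (0.533) and by ACT1 and SLA1 (0.687).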

How the data were processed

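The values are log2 ratios of both channels of each spot, deposited by the authors as 1 table of 45220 spots for all 6 arrays. Per the submitters' processing notes limma was used, with no version named; how background was corrected and ratios normalized is not stated in the sources used. Base 2 was inferred, as limma works in log2 and the values span such a range. The direction, heated over control, was likewise inferred from the design text, which does not state the sign, and HSP12 was positive on all 6 arrays. A table of the platform's probes named 28532 spots, covering 4073 genes, and 125 old symbols were replaced with a RefSeq gene table (assembly R64). Spots were averaged per gene and array. Scanner intensities were not used here, so dim spots could not be filtered, and for arrays their number limits the precision.

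limma 3.58.1 in R 4.3.3 fitted a mean per strain to all 6 arrays with no covariate (4 residual and 3.37 prior degrees of freedom), with Benjamini-Hochberg adjustment over 4073 genes. The fit was tried on 5 simulated sets of 4073 genes, with 200 genes changed between strains and independent normal noise of equal spread in both. For the strain difference it recovered 37.0% of changes of 0.5, 77.6% of changes of 1 and 95.8% of changes of 2 (log2), and 5.65% of the simulated calls were false. In the data 45.8% of genes were called, mutant arrays correlated less with each other and the zero point was uncertain. These shares therefore need not hold for the calls given here. Alternatives were the median of spots, scaling, quantile normalization, centring on the median or on the marker genes, a filter that left out the 20% of genes with the largest spread between spots, array weights, a separate spread per strain, a replicate block and leaving out each array. From each list of related genes, the highest and lowest called gene of each comparison are named; Further genes of the Arp2/3 complex, TPM2 and the folding genes plotted were shown to complete their complex or pair. The members and lists were chosen with earlier results of these data known. AIM7, 1 of 48 other actin and endocytic genes listed, was not analysed here. No sequences are shown.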

Additional observations from a re-analysis of the deposited data

Results flagged for a closer look

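The heat ratio of the following genes differed between the strains by the limma test of the difference itself. All differences are rpd3 deletion minus wild type on the log2 scale. Of the 10 actin and patch genes, these were ARP2 at -0.83, COF1 at -0.75, LAS17 at -0.56, CAP1 at -0.47 and ARP3 at -0.41.

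Among the other named genes of actin and endocytosis, lower ratios in the mutant were found for YSC84 at -1.34, APM4 at -0.86, ARC18 at -0.76, CAP2 at -0.70, INP52 at -0.58, ARK1 at -0.53 and MYO5 at -0.47. Higher ratios were found for TPM1 at 1.07 and ENT1 at 0.75. Among the folding genes PAC10 differed by 0.78 and GIM5 by 0.32. The call of GIM5 was kept under 6 of 15 alternatives; it was lost with scaled arrays (adjusted p = 0.0537), quantile normalization (0.107), arrays centred on their median (0.073) and the replicate block (0.0549), and on leaving out any 1 array but mutant array 2 (0.0632 to 0.156). Of the actin-related proteins outside the Arp2/3 complex, ARP5 differed by 1.25, ARP1 by 0.66, ARP8 by 0.58 and ARP6 by -0.35, and of the tubulins and septins CDC11 by 0.59 and TUB4 by 0.57. No group held more than 3 arrays, so no array was tested for standing apart from its group.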

How the results depend on the processing

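Over the 10 genes and 15 alternatives, 136 of 149 values kept direction and call in wild type, 143 of 149 in the mutant and 116 of 149 for the strain difference. ARP2 was removed by the filter on spot spread. In wild type the median of the 10 genes was 0.25 with arrays centred on the marker genes. In the mutant 5 genes rose with array weights, and the median turned to -0.0035 with quantile normalization and lay between -0.011 and 0.027 when 1 array was left out. For the strain difference, 1 gene was called higher with scaled arrays and with quantile normalization, and 2 with arrays centred on the marker genes, with array weights and with the replicate block, which otherwise changed no call of the 10 genes. With 1 array left out, 0 to 2 were called higher and 1 to 4 lower. With arrays centred on the marker genes 1 was called lower and the median was -0.12. Uncalled values near 0 changed sign: with arrays centred on the marker genes COF1 (-0.11) and CAP1 (-0.089) in wild type, LAS17 in the mutant (0.095) and ABP1 for the difference (0.064); LAS17 in the mutant also with array weights (0.035); and ARP3 in the mutant without mutant array 1 (-8.7e-05). With 1 array left out, COF1 ranged from -0.071 to 0.10 and CAP1 from -0.021 to 0.10 in wild type, and LAS17 from -0.098 to 0.12 in the mutant. The cause was not tested.

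Over all genes, the strain difference called 1012 higher and 854 lower; it called 1564 and 398 with arrays centred on the marker genes, 643 and 450 without mutant array 1, and 480 and 507 lower without wild-type arrays 1 and 2. With array weights, 1357 were lower. The default array weights did not converge, so the gene-by-gene method was used; it gave mutant array 1 a weight of 7.45, against 0.373 to 1.39 for the others. Same-numbered arrays of the strains were not treated as pairs in the main fit. Their deviations from the strain means correlated with r = -0.220, 0.210 and 0.418 over genes. Array 1 of wild type went best with mutant array 2 (0.455), while wild-type arrays 2 and 3 went best with the mutant array of the same number. Deviations from a mean sum to 0 within a strain, so these correlations depend on each other and cannot decide whether arrays pair. Under the replicate block SAC6 (adjusted p = 0.0279) and SLA1 (0.0332) were called higher.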
